A study of Homo sapiens with 21 samples.

Results

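The complement genes examined were C1QA, C1QB, C1QC, C3, C3AR1, C5AR1, CR1, ITGAM, ITGB2 and CD55, and the measure was open chromatin at and around them. A peak is a stretch that a library reported as accessible. Peaks that shared at least 1 bp were merged over 21 libraries into 166736 regions, and a region was taken as belonging to one of these genes if that gene's span was the nearest protein-coding span and lay within 100 kb. This gave 67 regions for the 10 genes. A call means that the library had a peak within the region.

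The libraries were of microglia-like cells derived from the established human embryonic stem cell line H9 by way of haematopoietic progenitors and 28 days of culture with IL-34, TGF-beta1 and M-CSF, with CD200 and CX3CL1 added at the end. Each library was made by Omni-ATAC, in which a transposase inserts sequencing adapters into accessible DNA, from 80000 sorted cells. There were 7 isogenic lines with 3 libraries each: unedited WT and 6 lines made homozygous by CRISPR/Cas9. TREM2-R47H carried a missense allele and TREM2-KO a knockout of TREM2, a lipid-sensing receptor of microglia. SORL1-A528T carried a missense allele of SORL1, an endosomal sorting receptor, and SORL1-KO carried the stop allele R744X. CD33 SNP and INPP5D SNP carried a single-nucleotide variant at CD33, a receptor for sialic acids, and at INPP5D, which encodes the phosphatase SHIP1. H9 is heterozygous at the INPP5D site, so WT is heterozygous there and the INPP5D SNP line homozygous. The libraries titled SORL1-A528T have a genotype label that names TREM2-KO. They were grouped by title, and the name SORL1-A528T stands below for those titles. The sources used here give neither the number of clones per line nor whether replicates were separate differentiations. P-values therefore measure only how these libraries vary, and that variation may be technical.

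Complement is a set of plasma and cell-surface proteins that tag particles for uptake. C1q, built from the chains of C1QA, C1QB and C1QC, starts the classical pathway, and in brain microglia are its main source. The pathway cleaves C3, whose fragments coat targets and are bound by CR1 and by CR3, the integrin pair of ITGAM (CD11b) and ITGB2 (CD18). The small fragments of C3 and C5 signal through C3AR1 and C5AR1, and CD55 breaks up the enzymes that cleave C3 and C5 on a cell's own membrane. In the developing brain and in models of Alzheimer's disease, C1q, C3 and CR3 are known for their part in the removal of synapses by microglia.

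Depth followed the replicate number: replicate 1 had 56.5 to 67.4 M tags (M being 1000 times 1000), replicate 2 had 12.8 to 17.5 and replicate 3 had 32.6 to 52.9. The lists held 39736 peaks (SORL1-A528T replicate 2) to 102891 peaks (TREM2-KO replicate 3), and 39.38% to 74.25% of tags lay in peaks. The fragment length in the file headers was 74 in every library of replicates 1 and 3 and 136 to 494 in replicate 2, with the highest value in SORL1-A528T replicate 2. Of 13 microglia or myeloid marker genes, 7 were called at the gene start (or, with no tabulated start, at an end) in every library, namely SPI1, P2RY12, TYROBP, CD68, MERTK, GPR34 and RUNX1. TMEM119 had none, and the tabulated start of IRF8 had none although an end of its span lay in a region called in 20 libraries. The myeloid markers called per library ranged from 7 to 11 in SORL1-A528T, from 8 to 11 in WT and from 9 to 11 over the other lines. Of 7 pluripotency markers 5 were at 0, among them POU5F1 and NANOG, while LIN28B was called in 21 libraries and SOX2 in 17. All 6 erythroid and mast cell markers were at 0, as were 4 of 5 endothelial, 3 of 5 neural, 3 of 5 fibroblast and 2 of 4 T cell markers. CD3E of the T cell list and NEUROG2 of the neural list were called in every library. Of the others on these lists, COL1A2 was called in 19 libraries, CD2 in 16, TEK in 14, COL1A1 in 12 and PAX6 in 1. CD3D and HDC, at 0 by their tabulated starts, had an end of the span in regions called in 21 and 3 libraries. The libraries are bulk, so a call cannot be assigned to a cell type, and more open cells and a more open site per cell cannot be told apart.

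The 250 bases before the annotated start are shown for the 7 genes whose start lay in the RefSeq promoter table and in a called region, since these are the stretches the results at gene starts turn on. They are from RefSeq (GRCh38.p14) at chr1:22636213-22636462 (C1QA, plus strand), chr1:22652986-22653235 (C1QB, plus), chr12:8066360-8066609 (C3AR1, minus), chr19:47309611-47309860 (C5AR1, plus), chr1:207495907-207496156 (CR1, plus), chr16:31259725-31259974 (ITGAM, plus) and chr1:207321428-207321677 (CD55, plus), each written 5′ to 3′ on the gene's strand. Capitals mark matches to GAGGAA, a core of the sites of PU.1, the ETS factor that sets up myeloid chromatin, on either strand.
C1QA: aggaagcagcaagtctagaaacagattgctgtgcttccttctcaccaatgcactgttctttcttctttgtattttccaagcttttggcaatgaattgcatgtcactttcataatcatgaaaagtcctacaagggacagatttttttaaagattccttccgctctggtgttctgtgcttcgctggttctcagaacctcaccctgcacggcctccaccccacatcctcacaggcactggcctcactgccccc
C1QB: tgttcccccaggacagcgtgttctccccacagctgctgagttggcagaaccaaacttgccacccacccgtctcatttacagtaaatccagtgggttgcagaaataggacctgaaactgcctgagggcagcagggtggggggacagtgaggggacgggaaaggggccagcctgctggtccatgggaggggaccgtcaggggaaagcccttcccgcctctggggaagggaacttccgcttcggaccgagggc
C3AR1: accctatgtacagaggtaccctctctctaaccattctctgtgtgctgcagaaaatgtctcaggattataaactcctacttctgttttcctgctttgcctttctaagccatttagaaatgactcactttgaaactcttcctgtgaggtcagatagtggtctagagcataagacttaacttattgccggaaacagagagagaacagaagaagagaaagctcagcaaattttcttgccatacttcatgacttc
C5AR1: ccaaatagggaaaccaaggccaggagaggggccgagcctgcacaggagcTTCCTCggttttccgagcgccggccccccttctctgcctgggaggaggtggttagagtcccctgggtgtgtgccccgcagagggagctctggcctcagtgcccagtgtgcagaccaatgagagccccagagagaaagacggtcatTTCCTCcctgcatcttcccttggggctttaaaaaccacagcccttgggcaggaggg
CR1: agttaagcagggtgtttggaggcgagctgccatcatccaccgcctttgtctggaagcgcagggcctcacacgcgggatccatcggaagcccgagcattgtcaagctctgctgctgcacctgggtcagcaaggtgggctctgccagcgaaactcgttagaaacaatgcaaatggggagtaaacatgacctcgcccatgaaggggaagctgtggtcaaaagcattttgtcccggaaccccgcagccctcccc
ITGAM: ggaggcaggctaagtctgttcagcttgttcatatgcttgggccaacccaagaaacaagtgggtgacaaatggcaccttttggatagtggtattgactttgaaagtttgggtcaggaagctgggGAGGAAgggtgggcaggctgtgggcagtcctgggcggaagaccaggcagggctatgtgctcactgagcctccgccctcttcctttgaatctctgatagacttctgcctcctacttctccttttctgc
CD55: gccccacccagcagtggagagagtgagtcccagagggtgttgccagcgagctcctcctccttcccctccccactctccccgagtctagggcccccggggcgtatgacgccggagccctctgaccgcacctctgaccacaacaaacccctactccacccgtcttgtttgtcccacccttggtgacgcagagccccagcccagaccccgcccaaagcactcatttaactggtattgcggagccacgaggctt

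The PU.1 letters GAGGAA were in 23.5% of 15812 promoters of this length and in 2 of the 7 shown. C5AR1 held 2 matches on the other strand, at bases 201 to 196 and 56 to 51 before the start. ITGAM held 1 match at bases 127 to 122. The Sp1 letters GGGCGG, in 56.0% of promoters, were in ITGAM and CD55. The NF-Y letters CCAAT, in 34.4%, were in C1QA and C5AR1, and the E-box letters CANNTG, in 57.8%, were in C1QB, CR1 and ITGAM. C3AR1 held the AP-1 letters TGANTCA (5.05% of promoters) and the TATA letters TATAAA (9.25%), and none of the 7 held the C/EBP letters TTGCAA (3.75%). Both strands were searched and no match overlapped one of another motif. GC content of the 7 windows ran from 40.8% in C3AR1 to 64.0% in CD55. A match describes the letters alone, and no match says nothing of the factor.

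Complement chromatin was open in all lines, mostly at a small number of regions per gene. Of the 67 regions, 7 (10.4%) were called in all 21 libraries, against 15.4% of all regions, and 13 (19.4%) in 1 library, against 25.8%. Their median was 9 libraries against 7, and their median width 817 bp against 737 bp. The 7 invariant regions belonged to C1QA, C1QB, C3AR1, ITGAM (2) and CD55 (2). Of 15812 annotated protein-coding starts, 44.3% lay in a region called in all 21 libraries and 68.5% in any called region. The starts of C1QA, C3AR1, ITGAM and CD55 lay in a region of all 21, and those of C1QB, CR1 and C5AR1 in regions of 20, 16 and 7 libraries.

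**Figure D1:**
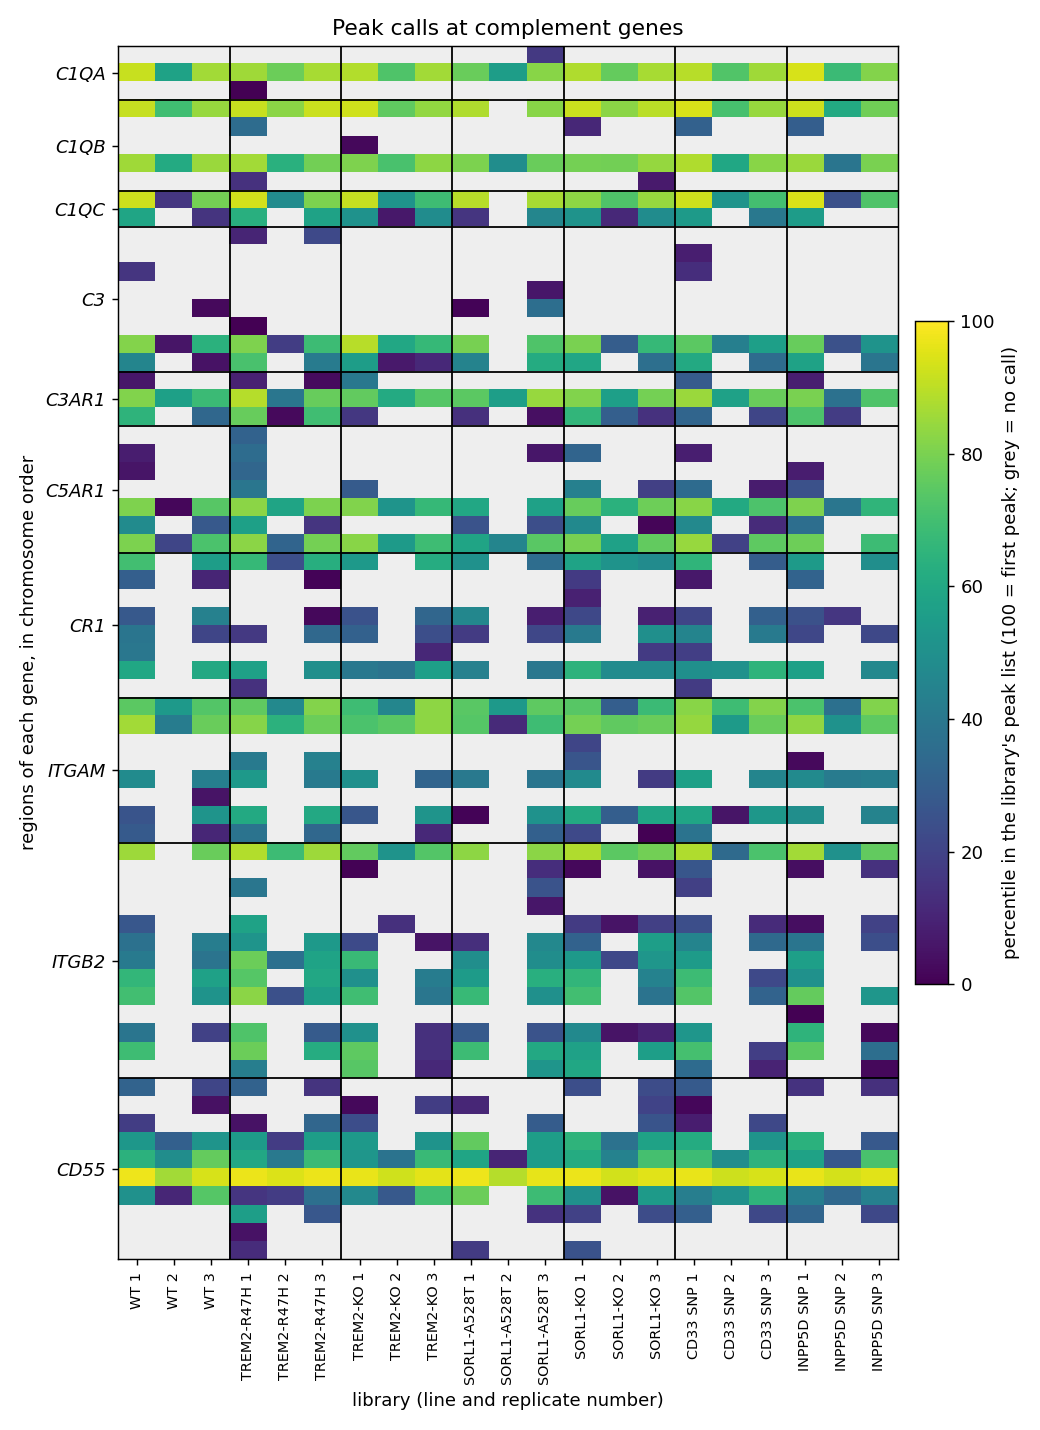
Calls at the 67 complement regions (rows, grouped by gene in chromosome order) in the 21 libraries (columns, by line and replicate number). Colour gives the percentile of the region's best peak in that library's list, with 100 for the first peak listed, and grey means no call. The CD55 start row is bright in every column, from 86.1 to 97.4, and replicate 2 columns hold the fewest calls.

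The deposited lists carry no peak height, but their order was not genomic. On average 19.9 to 20 other libraries shared a peak of a list's first 10%, and 3.7 to 13.4 shared one of its last 10%, so position in a list was used as a graded measure. It is given as a percentile of the library's own list, with 100 for the first peak. A percentile thus depends on the length of the list, and replicate 2 had the shortest list of each line.

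C1QA and C1QB were open at their starts in 21 and 20 libraries, and C1QC over an end of its span in 20. The C1QA start region (chr1:22635843-22638209) was called in 21 of 21 libraries. In the order of replicates 1, 2 and 3, its percentile was 91.7, 57.7 and 86.3 in WT, 85.7, 77.5 and 86.8 in TREM2-R47H, and 88.4, 72.6 and 86.1 in TREM2-KO. It was 77.2, 55.5 and 82.4 in SORL1-A528T, 88.1, 76.4 and 86.8 in SORL1-KO, 89.4, 72.9 and 85.6 in CD33 SNP, and 93.8, 68.0 and 81.3 in INPP5D SNP. By percentile replicate 2 was the lowest in every line, and each edited line's values overlapped those of WT. By rank among the regions called in every library, replicate 3 was the lowest in INPP5D SNP. The peaks covered from 626 to 2164 bp of the region. The other 2 C1QA regions were each called in 1 library, SORL1-A528T replicate 3 and TREM2-R47H replicate 1.

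At C1QB the start region (chr1:22651873-22654091) was called in 20 libraries, all but SORL1-A528T replicate 2, with percentiles from 87.9 to 94.0 in replicate 1, 60.8 to 82.6 in replicate 2 and 78.5 to 91.8 in replicate 3. A further region 106 bp outside the span (chr1:22661743-22664046) was called in all 21, at 38.9 to 88.2 with a median of 79.8. The remaining 3 C1QB regions were called in 4, 2 and 1 libraries, and the 4 calls of the region inside the gene at chr1:22654345-22655150 were all of replicate 1. C1QC had 2 regions. One over an end of its span (chr1:22641572-22644879) was called in 20 libraries, again all but SORL1-A528T replicate 2, and ranged from 15.9 in WT replicate 2 to 94.4 in INPP5D SNP replicate 1. The other, inside the gene (chr1:22645477-22646634), was called in 15 libraries, 7 of replicate 1, 2 of replicate 2 and 6 of replicate 3.

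C3, the central protein of the cascade, had 8 regions, of which 6 were called in 1 to 3 libraries. The region over an end of its span (chr19:6718380-6722318) was called in 20 libraries, with SORL1-A528T replicate 2 the exception. Its percentile ran from 74.9 to 89.1 in replicate 1, 5.52 to 60.0 in replicate 2 and 51.2 to 72.3 in replicate 3. In WT the values were 81.6, 5.52 and 63.9, so libraries of 1 line spanned nearly the whole range. A neighbouring region 2513 bp outside the span (chr19:6723163-6724382) was called in 15 libraries, the 14 of replicates 1 and 3 and TREM2-KO replicate 2. Over all 8 regions C3 had the lowest call rate of the 10 genes, 45 of 168 possible calls (26.8%).

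The anaphylatoxin receptors differed in where they were open. C3AR1, the receptor of the C3a fragment, was called at its start (chr12:8064073-8067084) in 21 of 21 libraries, at percentiles of 74.7 to 88.7 in replicate 1, 37.2 to 61.3 in replicate 2 and 68.1 to 84.7 in replicate 3. A region 3050 bp outside its span (chr12:8069409-8071225) was called in 15 libraries, in 3 of 3 of TREM2-R47H (76.7, 2.5 and 69.2) and of SORL1-KO (65.8, 30.2 and 14.2), in 1 of 3 of TREM2-KO (16.1) and in 2 of 3 of each other line, WT (65.0 and 33.5) among them. A region inside C3AR1 was called in 6 libraries, 5 of them of replicate 1.

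C5AR1, the receptor of C5a, was rarely called at its start (chr19:47309341-47310157). The 7 libraries with a call were TREM2-R47H 1 (percentile 39.2), TREM2-KO 1 (28.9), SORL1-KO 1 and 3 (43.6 and 19.0), CD33 SNP 1 and 3 (34.8 and 7.45) and INPP5D SNP 1 (24.9). No library of WT, of SORL1-A528T or of replicate 2 called it, and every value lay in the lower part of its list. By contrast, a region inside C5AR1 (chr19:47314974-47316014) was called in 20 libraries, all but SORL1-A528T replicate 2, at a median percentile of 69.5. In WT its values were 80.5, 1.68 and 73.9, and in SORL1-KO 76.9, 63.8 and 78.0. A region 1415 bp outside the span (chr19:47323481-47325146) was also called in 20, all but INPP5D SNP replicate 2, at a median of 73.1. The region over the end of the gene (chr19:47321801-47322780) was called in 11 libraries, in 2 of 3 of WT, TREM2-R47H, SORL1-A528T, SORL1-KO and CD33 SNP, in 1 of 3 of INPP5D SNP and in 0 of 3 of TREM2-KO. No line called it in 3 of 3.

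**Figure D2:**
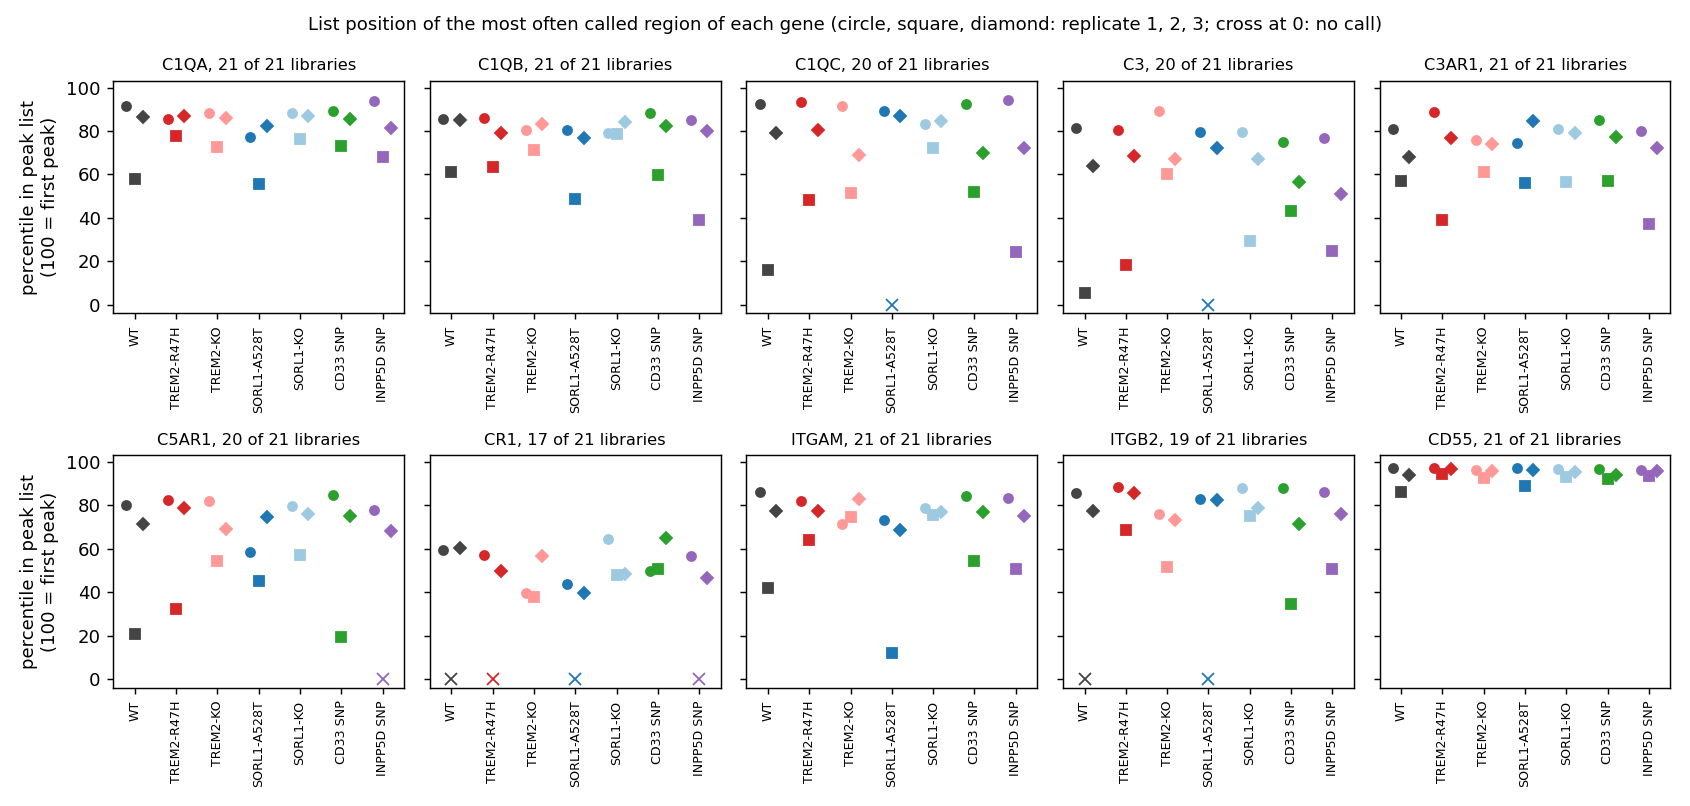
Percentile in the library's peak list (vertical axis, 100 for the first peak) of the most often called region of each gene, by line, with circles, squares and diamonds for replicates 1, 2 and 3 and a cross at 0 for no call. CD55 lies between 86.1 and 97.4 in all 21 libraries, while C3 runs from 5.52 to 89.1 with squares lowest.

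CR1, the receptor that binds coated targets and helps inactivate C3b, was called at its start (chr1:207495345-207496706) in 16 libraries, all of replicates 1 and 3 and 2 of 7 of replicate 2. Its percentile was 69.7 and 55.6 in WT replicates 1 and 3 with no call in replicate 2, and 67.0, 24.1 and 62.7 in TREM2-R47H. It was 57.9, 51.4 and 48.2 in SORL1-KO. In replicates 1 and 3, with no call in replicate 2, it was 53.6 and 62.0 in TREM2-KO, 50.5 and 35.9 in SORL1-A528T, 65.4 and 29.3 in CD33 SNP, and 54.3 and 49.4 in INPP5D SNP. Lines overlapped, and the range over libraries was 24.1 to 69.7. The CR1 region with the most calls lay inside the gene (chr1:207619926-207620803) and was called in 17 libraries at 38.0 to 65.2. CR1 contains long internal repeats and has a related neighbour, and the sources used here do not say how reads that fit several places were treated, so its inner regions are uncertain.

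ITGAM, the alpha chain of CR3, was called at its start (chr16:31259375-31260644) in 21 of 21 libraries. By replicates 1, 2 and 3 its percentile was 86.0, 42.0 and 77.2 in WT, 82.0, 64.1 and 77.6 in TREM2-R47H, 71.5, 74.5 and 82.9 in TREM2-KO and 73.5, 11.9 and 68.8 in SORL1-A528T. It was 79.0, 75.4 and 77.0 in SORL1-KO, 84.1, 54.6 and 77.1 in CD33 SNP, and 83.4, 50.9 and 75.3 in INPP5D SNP. The lowest value was in SORL1-A528T replicate 2, the shortest list, and all edited lines overlapped WT. A region 5547 bp outside the ITGAM span (chr16:31253459-31254428) was also called in every library, at 29.7 to 82.9. Of its 6 other regions, those at chr16:31301776-31302578 and chr16:31287461-31288278 inside the gene were called in 16 and 15 libraries.

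ITGB2, the shared beta chain, had the most regions of the 10 genes, 13, and none was called in all 21. No region lay over either end of its span, and its start was not tabulated, so this says nothing of its promoter. The most often called, 3932 bp outside (chr21:44880367-44882021), was found in 19 libraries, all but WT replicate 2 and SORL1-A528T replicate 2, at 34.5 to 88.5. Inside the gene, 7 regions were called in 13 to 15 or in 10 libraries, and replicate 2 gave few of these calls. The region at chr21:44902736-44903833, called in 10 libraries, was the 1 complement region called in 3 of 3 libraries of one line and 0 of 3 of the line it was compared with. The SORL1-KO libraries called it at percentiles of 17.3, 5.41 and 19.0 and no SORL1-A528T library called it. All 3 values lay near the end of their lists, and the call pattern was lost when every list was limited to the length of the shortest, 39711 peaks, or when peaks had to cover at least 50% of the region.

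CD55, the regulator, had the region that stood highest in the lists. Its start (chr1:207320678-207322687) was called in 21 of 21 libraries at 97.3, 86.1 and 93.9 in WT, 97.0, 94.6 and 96.9 in TREM2-R47H, 96.5, 92.8 and 95.8 in TREM2-KO, and 97.4, 88.8 and 96.1 in SORL1-A528T. It was at 96.9, 93.3 and 95.6 in SORL1-KO, 96.8, 92.2 and 94.1 in CD33 SNP, and 96.5, 93.6 and 95.7 in INPP5D SNP. All lines overlapped within 86.1 to 97.4, and by percentile replicate 2 was the lowest of each line. By rank among the regions called in every library, replicate 3 was the lowest in CD33 SNP and INPP5D SNP. A region 4368 bp outside the span (chr1:207316438-207317310) was also called in all 21, at 10.4 to 76.5, and one inside the gene (chr1:207335573-207337712) in 20, all but SORL1-A528T replicate 2. At the inner region SORL1-A528T replicates 1 and 3 were at 77.7 and 68.4, WT at 50.5, 10.8 and 73.5, and TREM2-R47H at 15.3, 17.6 and 36.7.

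Regions of 20 libraries mostly lacked the same library. Of all 7297 such regions, 57.0% lacked SORL1-A528T replicate 2 alone, and so did 5 of the 6 complement regions, those of C1QB, C1QC, C3, C5AR1 and CD55 named above. Without the SORL1-A528T libraries these 5 were called in 18 of 18.

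Calls per line overlapped between all lines, with replicate 2 lowest in each. Of 67 regions, replicates 1, 2 and 3 called 41, 14 and 36 in WT, 51, 19 and 39 in TREM2-R47H, 37, 18 and 32 in TREM2-KO and 34, 8 and 42 in SORL1-A528T. They called 45, 23 and 41 in SORL1-KO, 49, 16 and 34 in CD33 SNP, and 42, 16 and 30 in INPP5D SNP. At each replicate number TREM2-R47H and SORL1-KO called more than WT. As a share of possible calls, TREM2-R47H had 54.2% ± 24.1 and SORL1-KO 54.2% ± 17.5 (SD, n = 3 each), followed by CD33 SNP at 49.3% ± 24.7, WT at 45.3% ± 21.4, INPP5D SNP at 43.8% ± 19.4, TREM2-KO at 43.3% ± 14.7 and SORL1-A528T at 41.8% ± 26.5. Every step in that order was smaller than the SD of either neighbour, and those SDs include the low counts of replicate 2. Over all 166736 regions the means were 45.7%, 43.6%, 49.1%, 46.2%, 42.9%, 46.6% and 36.3% in the same order of lines. By replicate number, the complement regions were called at 63.8%, 24.3% and 54.2% of possible calls in replicates 1, 2 and 3, and all regions at 48.4%, 31.3% and 53.4%. Each library's mean depth-adjusted call over the 67 regions (its calls minus those of regions of like recurrence in the same library, as defined for the gene test below) was -0.011, -0.047 and -0.074 in WT and 0.133, 0.008 and 0.072 in SORL1-KO, which did not overlap. It was 0.202, -0.03 and -0.019 in TREM2-R47H, where replicate 1 alone was above all WT values, and 0.12, -0.125 and -0.175 in TREM2-KO. It was 0.082, -0.081 and 0.134 in SORL1-A528T, 0.125, -0.115 and -0.133 in CD33 SNP, and 0.112, -0.045 and -0.13 in INPP5D SNP, all overlapping WT. These means carry no test, since the genes were chosen with results known. The share of tags in peaks was 57.59%, 72.48% and 73.16% in WT and 46.43%, 69.2% and 58.44% in SORL1-KO. Over all lines, libraries with 58.44% of tags in peaks or fewer had positive means, except WT replicate 1. Those with 66.27% or more were at 0.008 or below. The part of this share was not tested, nor was that of depth and fragment length, which moved with the replicate number.

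**Figure D3:**
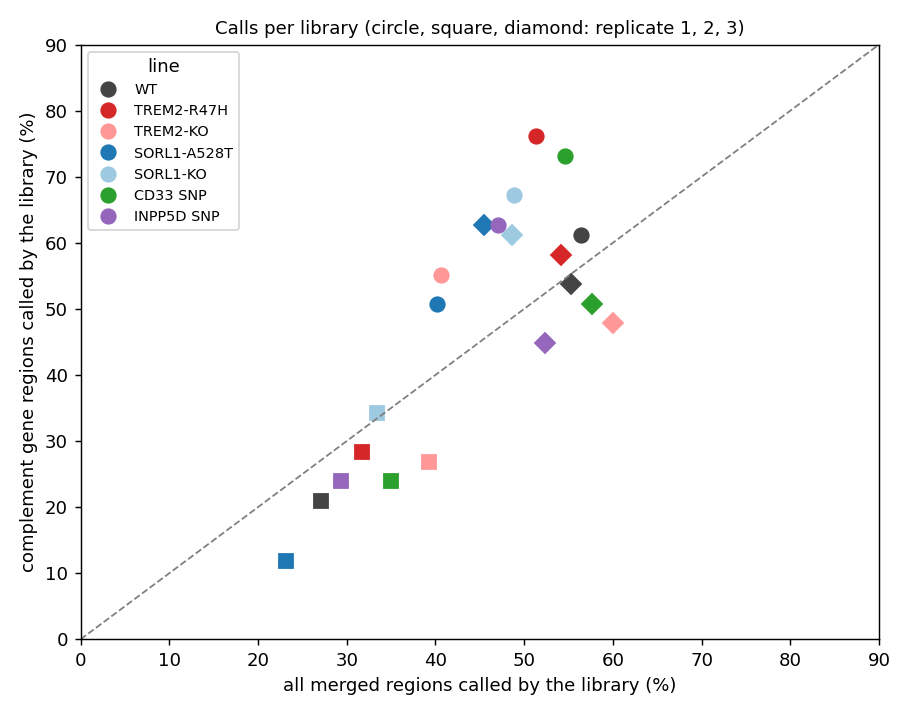
Share of the 67 complement regions called by each library (vertical axis, %) against its share of all 166736 regions (horizontal axis, %), with lines in colours, circles, squares and diamonds for replicates 1, 2 and 3, and a dashed line where both shares are equal. All 7 circles lie above the dashed line, and the squares hold the lowest shares, down to 11.9% in SORL1-A528T replicate 2.

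Each edited line was then compared with WT, and the 2 alleles of TREM2 and of SORL1 with each other, to ask whether an edit changed which complement regions were called. No complement region was gained (3 of 3 against 0 of 3) or lost (0 of 3 against 3 of 3) against WT in any edited line. Among all regions, 0.127% were gained and 0.303% lost in TREM2-R47H, 0.048% and 0.0576% in TREM2-KO, 0.0114% and 0.487% in SORL1-A528T, 0.0624% and 0.233% in SORL1-KO, 0.0954% and 0.0414% in CD33 SNP, and 0.0276% and 0.142% in INPP5D SNP. Beside shares this small, a count of 0 among 67 regions is near the background. TREM2-R47H against TREM2-KO gave 0 gained and 0 lost complement regions, beside 0.345% and 0.288% of all regions. SORL1-A528T against SORL1-KO gave 0 gained, beside 0.112%, and 1 lost, the ITGB2 region above, beside 1.1%.

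The calls were also compared per gene after adjusting for depth. The depth-adjusted call of a region in a library is its call (1 or 0) minus the mean call, in that library, of regions with an equal count of calling libraries, and it was averaged over a gene's regions. A value of 0.1 thus means that the share of the gene's regions called was 10 percentage points above that of regions of like recurrence in the library. Genes with at least 5 regions were tested with limma, which left C1QB, C3, C5AR1, CR1, ITGAM, ITGB2 and CD55 among 8732 genes and left out C1QA, C1QC and C3AR1, with 3, 2 and 3 regions.

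None of the 7 genes passed an adjusted p of 0.05 in any of the 8 comparisons. Of all genes tested, 0.0115% passed in INPP5D SNP against WT and 0.0% in each of the other 7. An unadjusted p below 0.05 was reached by 8.43% of all genes in TREM2-R47H, 3.52% in TREM2-KO, 4.09% in SORL1-A528T, 4.75% in SORL1-KO, 2.52% in CD33 SNP and 2.87% in INPP5D SNP against WT, 13.8% in TREM2-R47H against TREM2-KO and 5.92% in SORL1-A528T against SORL1-KO, and by 1 of the 56 values of the complement genes. Differences ranged from -0.159 (C1QB, SORL1-A528T against SORL1-KO) to 0.282 (ITGB2, SORL1-A528T against WT), with 95% intervals reaching 0.17 to 0.29 to either side. Changes within those intervals were thus not told apart from 0 with 3 libraries per line. The intervals are not adjusted for multiple tests, so the adjusted test could also miss larger changes.

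ITGB2 in SORL1-A528T against WT was that value. Its depth-adjusted call by replicates 1, 2 and 3 was -0.098, -0.139 and -0.233 in WT, 0.135, -0.093 and 0.333 in SORL1-A528T, and 0.167, 0.055 and 0.078 in SORL1-KO. In WT all 3 values were negative, and both SORL1 lines lay above the highest WT value, SORL1-A528T narrowly (-0.093 against -0.098). Lines did not overlap in 5 of the 56 values of the complement genes. Among these were C3 below WT in SORL1-KO and INPP5D SNP, and C1QB in SORL1-A528T against SORL1-KO. The share without overlap over all genes was not counted, so this count is not read as a result about the complement genes. SORL1-A528T was 0.282 above WT (SE 0.125, 95% interval 0.02 to 0.543, limma adjusted p = 0.979), and all 3 libraries lay above the WT mean. Without SORL1-A528T replicate 3, the library with the lowest share of tags in peaks (39.38%), the difference was 0.186. SORL1-KO was 0.257 above WT (SE 0.125, interval -0.004 to 0.518, limma adjusted p = 0.938), and SORL1-A528T and SORL1-KO differed by 0.025 (interval -0.237 to 0.286). The comparisons with WT share the WT libraries, and ITGB2 was also above WT in TREM2-R47H (0.163), TREM2-KO (0.134), CD33 SNP (0.077) and INPP5D SNP (0.184), where the libraries overlapped WT.

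The lowest adjusted p was at CD55 in TREM2-R47H against TREM2-KO. The depth-adjusted call was 0.276, 0.001 and 0.022 in TREM2-R47H and 0.112, -0.177 and -0.219 in TREM2-KO, with overlap through TREM2-KO replicate 1. The difference was 0.195 (SE 0.095, interval -0.003 to 0.393, limma adjusted p = 0.366), and it was -0.003 with lists of equal length. Among the 7 genes C5AR1 had the largest difference of that comparison, 0.244 (SE 0.14, interval -0.047 to 0.535, limma adjusted p = 0.424), with 0.465, -0.028 and -0.152 in TREM2-R47H and 0.029, -0.122 and -0.353 in TREM2-KO. Here too the libraries overlapped, TREM2-R47H replicate 1 was the highest, and without it the difference was 0.064.

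C1QB, C3, CR1 and ITGAM gave smaller values. C1QB was 0.164 above WT in SORL1-KO (interval -0.042 to 0.37) and 0.139 above in TREM2-R47H (interval -0.067 to 0.345). In TREM2-R47H its values were 0.304, 0.001 and -0.101 against -0.116, 0.017 and -0.113 in WT, and without TREM2-R47H replicate 1 the difference was 0.016. C3 ranged from -0.072 in TREM2-KO to 0.074 in SORL1-A528T against WT. CR1 ranged from -0.043 in TREM2-R47H to 0.102 in SORL1-KO, and ITGAM from -0.084 in TREM2-KO to 0.098 in SORL1-KO, each against WT. The median over the 7 genes was 0.11 in TREM2-R47H, -0.05 in TREM2-KO, 0.058 in SORL1-A528T, 0.102 in SORL1-KO, -0.004 in CD33 SNP and -0.013 in INPP5D SNP against WT, where the median over all genes lay between -0.013 and 0.008. It was 0.116 in TREM2-R47H against TREM2-KO and -0.073 in SORL1-A528T against SORL1-KO, beside 0.022 and -0.006 over all genes. Single libraries moved these medians: the one of TREM2-R47H against WT was -0.008 without TREM2-R47H replicate 1, and that of TREM2-R47H against TREM2-KO was 0.052 without it and 0.057 without TREM2-KO replicate 3. The median of SORL1-KO against WT was 0.048 without SORL1-KO replicate 1, and that of SORL1-A528T against SORL1-KO ran from -0.123 to 0.006 when single libraries were left out. The median of TREM2-KO against WT ran from -0.116 (without TREM2-KO replicate 1, where C1QB had too few regions and 6 genes were left) to -0.008 and that of SORL1-A528T against WT from 0.015 to 0.084 over such omissions. The medians of CD33 SNP (-0.085 to 0.05) and INPP5D SNP (-0.049 to 0.044) took either sign.

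**Figure D4:**
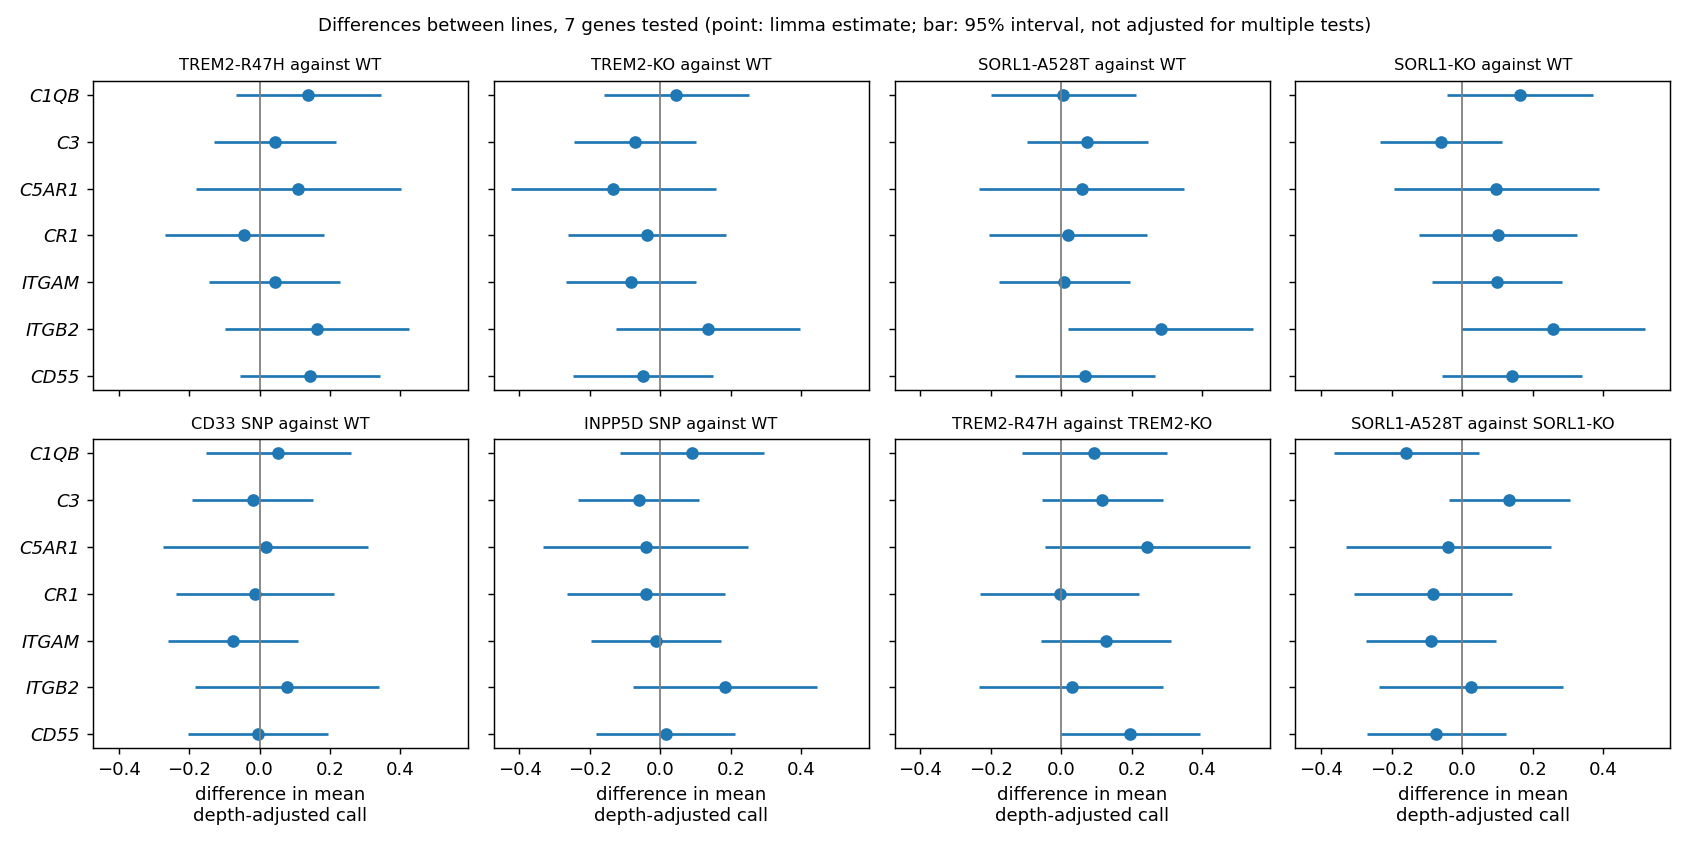
Difference in mean depth-adjusted call (horizontal axis, no unit) for the 7 complement genes tested in the 8 comparisons, as the limma estimate (point) with its unadjusted 95% interval (bar). Only ITGB2 in SORL1-A528T against WT, 0.282, has an interval that leaves out 0, and no difference passed adjustment over 8732 genes.

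At the 7 regions called in every library, list position was compared as the normal score of a region's rank among the 25599 regions called by all. None of the 7 passed an adjusted p of 0.05 (limma) in any comparison. Of all 25599 regions, 0.488% passed in TREM2-R47H, 0.0% in TREM2-KO, 0.0469% in SORL1-A528T, 0.00391% in SORL1-KO, 0.00391% in CD33 SNP and 0.0% in INPP5D SNP against WT, 0.703% in TREM2-R47H against TREM2-KO and 0.629% in SORL1-A528T against SORL1-KO. The region 5547 bp outside ITGAM was at -0.26, -0.41 and -0.4 in SORL1-A528T and at -0.53, -1.73 and -0.98 in SORL1-KO, with no overlap. It also did not overlap WT in SORL1-A528T or in CD33 SNP. These were the 3 values of 56 without overlap, all at 1 region and in comparisons that share libraries. The share over all regions was not counted, so this count is not read as a result. SORL1-A528T was 0.72 above SORL1-KO (SE 0.34, interval 0.01 to 1.43, limma adjusted p = 0.457), the 1 value of 56 at an unadjusted p below 0.05. That level was reached by 10.6% of all regions in this comparison, by 10.9% in TREM2-R47H against TREM2-KO, and against WT by 10.4% in TREM2-R47H, 2.95% in TREM2-KO, 6.03% in SORL1-A528T, 4.5% in SORL1-KO, 1.67% in CD33 SNP and 2.93% in INPP5D SNP. The ITGAM start differed the other way, by -0.66 (SE 0.36, interval -1.42 to 0.09, limma adjusted p = 0.563). The CD55 start lay at 0.9 in WT and at 0.95 to 1.23 in the edited lines, with a largest difference from WT of 0.32 (interval -0.07 to 0.71) in TREM2-R47H. In units of this score, intervals over the 56 values reached 0.39 to 0.9 to either side.

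A list of 34 other complement genes, covering the remaining components, regulators and receptors, had 169 regions, with a region at 31 genes. Every library called 20.1% of these, against 10.4% of the 67. The start or an end was called in every library for 8 genes, in none for 17 and in 1 to 20 libraries for 9. Many regions were at VSIG4 (20), a receptor of C3 fragments on tissue macrophages, MBL2 (17), the lectin that starts another pathway, CD46 (13), a membrane cofactor for cleaving C3b, MASP1 (12), a lectin-pathway protease, and ITGAX (9), the alpha chain of CR4. Their calls were 71.2%, 65.0%, 69.6%, 57.9% and 57.7% of those possible. Of the 13 genes with at least 5 regions, 0 rose and 0 fell past an adjusted p of 0.05 (limma) in each of the 8 comparisons, with 6 at an unadjusted p below 0.05 in TREM2-R47H against WT, 6 in TREM2-R47H against TREM2-KO, 1 in SORL1-KO against WT and 1 in INPP5D SNP against WT. Over all genes tested the shares at that level were 8.43%, 13.8%, 4.75% and 2.87% in the same order, the first 2 being the highest of the 8 comparisons. The 6 in TREM2-R47H against WT were split by direction, with CLU (0.23), ITGAX (0.214) and CD46 (0.128) above WT and C9 (-0.212), CD59 (-0.191) and C5 (-0.164) below. Their adjusted p (limma) ran from 0.493 to 0.582.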

How the data were processed

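Peak lists of 21 ATAC-seq libraries were analysed, 3 from each of 7 lines. Per the file headers, the authors called peaks library by library with HOMER findPeaks in histone style, setting peak size to 500, local enrichment to 4 over 10000 bp and minimum distance to 1000 bp. The deposited score is 1 at every peak, which leaves position and order but no height. The submitters' processing notes name cutadapt 1.18, STAR 2.7, HOMER 4.10 and DESeq2. Neither the genome build nor any shift of reads for the transposase is given in the sources used here. Region coordinates are those of the lists, counted from 1. Gene spans and starts came from RefSeq tables of GRCh38.p14: 44.3% of starts fell within regions that every library called, but 2.28% and 2.31% did after a shift of 10 kb to either side. The span table has no strand. Peaks on chromosomes Y and M and on other sequences, 0.0821% of 1604926, were left out.

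The depth-adjusted call per gene and the normal score of list rank per region were fitted with limma 3.58.1 (R 4.3.3) over all 21 libraries. Tests were two-sided, with Benjamini-Hochberg adjustment over all genes or regions of a comparison. The fits were also run on simulated data, with an outcome not reported here. Its noise was independent between libraries, so that run cannot speak to deviation shared by replicate number. Regions inside several gene spans counted for each. The complement genes, gene lists, markers and motifs were chosen with earlier results of these data known. For each gene the region over its start and any all-or-none region were named by rule, and other regions were chosen after their values were seen. Other complement genes were named by their number of regions, and 1 that the rule names is not reported here. The 6 named with a difference were chosen after their values were seen. Motifs were searched in the 250 bases before the start, in place of the longer window planned, which held bases after the start too. Alternatives were a cover of at least 50%, lists of equal length (39711 peaks), the first 50% of each list, other minimums of regions and distance, the rank percentile, the replicate number as a block, and leaving out libraries. No column of another sample was used.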

Additional observations from a re-analysis of the deposited data

How the results depend on the processing

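No complement gene or region passed the threshold in any of 484 values over 35 alternatives, each value being the count for 1 comparison. Few features of any kind passed in the main fits, at most 0.0115% of genes and 0.703% of regions, so 0 is near the background. With lists of equal length, the first 50% of each list or at least 10 regions per gene, 2 complement genes were left to test. Some alternatives left out a library of a line outside the comparison. The CD55 difference of TREM2-R47H against TREM2-KO changed sign with lists of equal length (-0.003) and with the first 50% of each list (-0.01), and was 0.12 to 0.297 when single libraries were left out, with the ends at TREM2-R47H replicate 1 and TREM2-KO replicate 1. The list-position difference of the C1QB region outside the span, INPP5D SNP against WT, was -0.699 to 0.04 over the same omissions, positive without INPP5D SNP replicate 2. Calls per line fell with fewer peaks. With lists of equal length the share was 22.9% in WT, 30.3% in TREM2-R47H, 25.9% in TREM2-KO, 25.9% in SORL1-A528T, 27.9% in SORL1-KO, 23.4% in CD33 SNP and 24.4% in INPP5D SNP. With the first 50% of each list, chosen for this measure after seeing the data, it was 23.9%, 29.9%, 26.4%, 21.9%, 27.9%, 25.9% and 21.4% in the same order of lines. With a cover of at least 50% it was 31.3%, 45.3%, 28.4%, 29.4%, 38.3%, 36.3% and 29.4%. With lists of equal length 1 region inside ITGB2 (chr21:44907424-44909112) was gained in TREM2-R47H against WT, and the lost region of SORL1-A528T against SORL1-KO became 0, as it did with a cover of at least 50%. Counts over all genes and regions moved by over 1.5 times in 37 and 80 alternative values.

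Libraries with the same replicate number correlated at -0.07 to 0.59 (63 pairs, median 0.18, other numbers -0.12) and 14 of 21 libraries were closest to their own number, so same-numbered libraries tended to deviate together, but not in every pair, and the labels name no shared source. The main fits therefore left the numbers out, so any shared deviation stayed in their SEs and intervals. In its comparison of lowest p, each of the 7 genes had a lower unadjusted p (limma) with the block. It went from 0.0359 to 0.00764 for ITGB2 (SORL1-A528T against WT). In TREM2-R47H against TREM2-KO it went from 0.0956 to 0.0181 for C5AR1 and 0.0538 to 0.0228 for CD55. Their adjusted p was 0.159 to 0.654. The share of all genes at such p was not counted. With the replicate number as a block, 0 complement genes and regions passed, while 59 of all genes passed in TREM2-R47H against TREM2-KO, 8 in SORL1-A528T against SORL1-KO, 1 in INPP5D SNP against WT and 0 in the other 5 comparisons. All region ranks past the threshold with the block were 804 in TREM2-R47H, 6 in TREM2-KO, 39 in SORL1-A528T, 4 in SORL1-KO, 2 in CD33 SNP and 1 in INPP5D SNP against WT, 1007 in TREM2-R47H against TREM2-KO and 693 in SORL1-A528T against SORL1-KO.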
